A study of Homo sapiens with 6 samples.

Results

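KLF proteins are transcription factors that bind GC-rich and CACCC-containing DNA through a conserved set of zinc fingers at the C-terminus. They belong to one family with the SP factors, and their N-terminal parts set whether they recruit acetyltransferases, the SIN3 complex or CTBP corepressors. In epithelial tumours KLF4, KLF5 and KLF6 are known for their part in proliferation and differentiation, and KLF10 and KLF11 are early responders to TGF-beta. The genes described here are the 10 symbols KLF2, KLF4, KLF5, KLF6, KLF7, KLF9, KLF10, KLF11, KLF12 and KLF13, taken by name from the 30051 genes with a row of counts. All 10 passed the filter on low counts and were among the 13341 genes tested.

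The libraries came from MDA-MB-231, an established human cell line from a triple-negative breast tumour, so all libraries share 1 genetic background. They were cultured in medium with serum. Control cells received the solvent DMSO and treated cells 50 nM panobinostat, a pan-inhibitor of histone deacetylases (HDACs), and both groups were taken at 24 h. Each group had 3 libraries, numbered 1, 2 and 3 in DMSO and 1, 2 and 4 in panobinostat, which the design text describes as independent repeats. The comparison asks how the cells' transcripts adapt to the inhibitor.

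Library totals ranged from 5389638 to 15106148 counts. The mesenchymal markers VIM, CD44, AXL, ZEB1 and MSN summed to 6520 to 6637 CPM in DMSO and 6414 to 6439 CPM in panobinostat (CPM, counts per 1000000 of a TMM-scaled library total). Within that sum VIM was called higher and AXL, MSN and ZEB1 lower, ZEB1 from 179.9 ± 6.81 to 95.8 ± 22.9 CPM (SD, n = 3). Luminal and epithelial markers summed to 44.5 to 49.1 CPM in DMSO and 34.8 to 40.3 CPM in panobinostat. EPCAM and GATA3 were called lower, CLDN4 was called higher (1.24 ± 0.378 and 4.05 ± 0.821 CPM) and CLDN7 was not called (15.5 ± 0.503 and 15.6 ± 1.62 CPM). CDH1 and CLDN3 had 1 and 8 counts over all libraries. ESR1 and PGR had 18 and 21 counts and were not tested, and their panobinostat values all lay above their DMSO values. The 5 leukocyte and endothelial markers with a row of counts summed to 16.4 to 20.2 CPM in DMSO and 37.8 to 59.1 CPM in panobinostat. KDR made up most of that sum (11.4 ± 2.33 and 44.4 ± 12.8 CPM, SD, n = 3). CD14 was also called higher (0.523 ± 0.135 and 2.46 ± 0.670 CPM), PECAM1 was not called (6.88 ± 1.14 and 4.64 ± 1.28 CPM), and PTPRC and CDH5 reached at most 0.427 CPM in any library. The calls of VIM, MSN and GATA3 held in 6, 7 and 8 of 13 alternative fits, which changed the scaling, filter, model or libraries. Those of AXL, ZEB1, EPCAM, CLDN4, CD14 and KDR held in all 13. CD44 and PECAM1, which were not called, gained a call in 3 and 4 of these fits. The part of these marker genes in the KLF values was not tested. Over the genes called in the comparison of all 6 libraries, panobinostat replicate 4 lay, in the median, between the other treated libraries and DMSO. Because replicate 4 is part of that comparison, these medians do not describe genes that were not called. On the log2 scale it had covered a median of 60.6% of the way from the DMSO mean to the mean of panobinostat replicates 1 and 2 over genes called higher, and 44.8% over genes called lower. The KLF calls are therefore given with and without it, and the counts of the other gene lists without it stand after those lists. Replicate 4 was set apart because of its own values. The p-values without it therefore understate the spread among the treated libraries and do not make a call firmer.

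Panobinostat split the KLF genes. KLF4, KLF5, KLF6, KLF7 and KLF9 rose, KLF2, KLF10 and KLF11 fell, and KLF12 and KLF13 were not called (edgeR quasi-likelihood test, Benjamini-Hochberg adjusted p under 0.05 over all tested genes). The 5 rises stand beside 30.2% of all tested genes called higher, and the 3 falls beside 28.6% called lower. No difference from those shares was tested. Fold changes ran from −1.46 (KLF2) to 0.94 (KLF4) on the log2 scale, with a median of 0.31 against 0.003 over all tested genes. In 8 of the 10 genes the 3 panobinostat values lay wholly outside the 3 DMSO values, which was also so for 69.0% of all tested genes. In bulk RNA, a change in the number of cells that express a gene and a change in RNA per cell cannot be told apart.

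**Figure D1:**
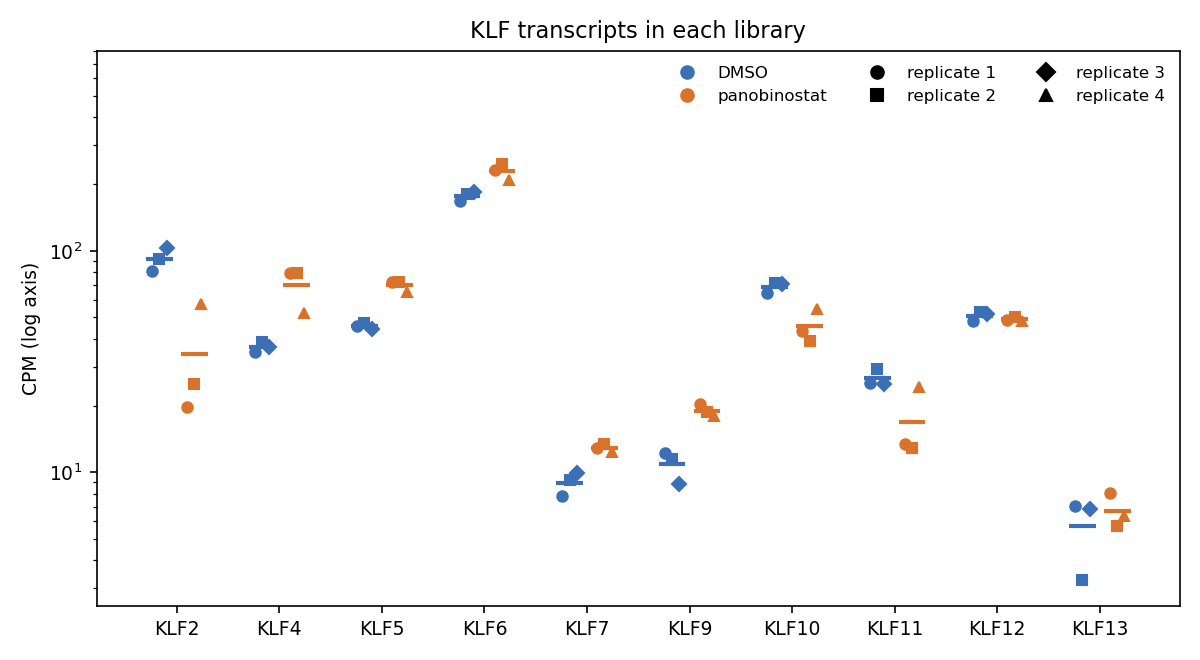
CPM of the 10 KLF genes (log axis) in each library, DMSO in blue and panobinostat in orange, with marker shapes for replicates and bars for group means. Groups are separate for 8 genes and overlap for KLF12 and KLF13, and panobinostat replicate 4 lies closer to DMSO for KLF2, KLF4 and KLF11.

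Among the members that mainly act as activators, KLF2, KLF4, KLF5, KLF6 and KLF7, 4 rose and 1 fell. Over all tested genes 30.2% were called higher and 28.6% lower, and no difference from these shares or between classes of members was tested. KLF2 (ENSG00000127528, chromosome 19, 16324826 to 16328685 on GRCh38.p14), a factor of endothelial and lymphocyte quiescence, fell the most of the 10. Its levels were 81.2, 91.7 and 103 CPM in DMSO replicates 1, 2 and 3 and 19.7, 25.0 and 57.6 CPM in panobinostat replicates 1, 2 and 4. All treated values were below all control values, and replicate 4 kept more than double the level of the other treated libraries. The log2 fold change was −1.46 ± 0.35 (SE), a 2.75-fold lower level (edgeR adjusted p = 0.00875), and only 1.14% of tested genes had a lower value. Without panobinostat replicate 4, the treated library nearest the controls, it was −2.10 ± 0.13 (edgeR adjusted p = 4.89e-08). Leaving that library out narrows the spread by choice. The call was lost when no filter on low counts was applied (edgeR adjusted p = 0.112).

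KLF4 (ENSG00000136826, chromosome 9, 107484852 to 107489769), a pluripotency and epithelial differentiation factor that shares many targets with KLF2, moved the opposite way. It measured 34.8, 38.6 and 36.9 CPM in DMSO and 79.0, 79.2 and 52.5 CPM in panobinostat replicates 1, 2 and 4. Replicates 1 and 2 were more than double the controls, and replicate 4 was intermediate but above all of them. This was a log2 fold change of 0.94 ± 0.16 (edgeR adjusted p = 0.00267), or 1.92-fold, and 1.11 ± 0.07 without replicate 4. This gave KLF4 the largest rise of the 10, with 11.8% of tested genes above it. Per kilobase of exon, the ratio of KLF4 to KLF2 within a library was 0.237, 0.232 and 0.197 in DMSO and 2.22, 1.75 and 0.503 in panobinostat replicates 1, 2 and 4. KLF4 thus went from less than KLF2 in every control to more than KLF2 in treated replicates 1 and 2, but not in replicate 4.

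The 250 bases before the RefSeq starts of KLF2 and KLF4 are shown because these 2 genes gave the largest fall and the largest rise and are both known targets of the ERK5 and MEF2 axis. Capitals mark GC boxes (GGGCGG, either strand), a binding sequence of SP and KLF factors, and the MEF2 consensus. The sequences are RefSeq's on GRCh38.p14, read 5′ to 3′ on the gene's strand, chr19:16324576-16324825 (plus) for KLF2 and chr9:107489770-107490019 (minus) for KLF4.
KLF2: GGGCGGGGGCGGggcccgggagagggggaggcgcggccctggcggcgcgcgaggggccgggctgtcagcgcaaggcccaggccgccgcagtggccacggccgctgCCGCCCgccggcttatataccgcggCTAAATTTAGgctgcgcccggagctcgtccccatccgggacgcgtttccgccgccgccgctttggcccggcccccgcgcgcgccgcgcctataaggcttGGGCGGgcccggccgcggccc
KLF4: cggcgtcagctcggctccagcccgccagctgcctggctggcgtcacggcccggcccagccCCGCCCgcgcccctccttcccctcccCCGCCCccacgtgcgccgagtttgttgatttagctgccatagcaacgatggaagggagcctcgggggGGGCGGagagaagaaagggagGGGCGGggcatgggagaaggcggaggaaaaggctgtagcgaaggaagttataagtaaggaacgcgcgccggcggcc
Each window held 4 GC boxes, and neither held a CACCC box (CACCC, either strand). KLF2 had 1 MEF2 match, whose last base lies 111 bases before the start and which overlaps no GC box. KLF4 had none in these letters, and had 2 matches to TGACG, a core sequence of CREB and ATF sites. GC content was 80.0% for KLF2, above 96.7% of all windows, and 69.2% for KLF4. Such matches describe the letters and do not show binding.

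RefSeq windows were matched for 9 of the 10 genes, 17 windows in all because some genes have several starts. No window was matched for KLF10, so its promoter was not examined. A GC box was present in 9 of the 17 windows, from 8 of the 9 matched genes (all but KLF9), and in 42.6% of the 35116 windows of all genes. A CACCC box was in 8 of the 17 windows (5 genes) and in 54.7% of all windows. A CCAAT box (CCAAT) was in 7 of the 17 (6 genes) and in 32.0% of all windows. The MEF2 consensus was in 2 of the 17, of KLF2 and KLF12, and in 2.80% of all windows. No difference from the shares of all windows was tested. Genes with several windows had more chances of a match, so the gene counts are not set against the shares of single windows. The KLF9 window was AT-rich, with 32.4% GC, and the median of all windows was 58.0%.

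KLF5 (ENSG00000102554, chromosome 13, 73054976 to 73077538), a proliferation factor of basal epithelium and basal-like breast cancer, rose with little spread. Its values were 45.7, 47.3 and 44.4 CPM in DMSO and 72.3, 72.4 and 65.5 CPM in panobinostat. All treated libraries lay well above the controls, replicate 4 included. KLF5 thus changed by 0.61 ± 0.08 on the log2 scale (edgeR adjusted p = 0.00109), the lowest adjusted p of the 10. KLF6 (ENSG00000067082, chromosome 10, 3775996 to 3785209), a widely expressed early-response factor, had the highest counts, with 168, 181 and 184 CPM in DMSO and 231, 248 and 208 CPM in panobinostat. Its rise was the smallest called among the 10, at 0.37 ± 0.08 (1.29-fold, edgeR adjusted p = 0.00611), with no overlap between groups. KLF7 (ENSG00000118263, chromosome 2, 207074137 to 207173851), known for neuronal and adipocyte differentiation, was low, at 7.80, 9.25 and 9.93 CPM in DMSO and 12.9, 13.4 and 12.3 CPM in panobinostat. The treated values were tightly grouped above the controls, with a log2 fold change of 0.53 ± 0.14 (edgeR adjusted p = 0.0131). The KLF7 call was lost without DMSO replicate 1, the lowest control (edgeR adjusted p = 0.0650).

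Of the members that bind the SIN3 corepressor, KLF9, KLF10, KLF11 and KLF13, 1 rose, 2 fell and 1 was not called. These counts stand beside the same 30.2% and 28.6% of all tested genes, and no difference was tested. KLF9 (ENSG00000119138, chromosome 9, 70384604 to 70414657), a target of the glucocorticoid and thyroid hormone receptors, had 12.2, 11.5 and 8.84 CPM in DMSO and 20.2, 18.7 and 17.9 CPM in panobinostat. Every treated library was above every control, and replicate 4 was close to its group. The log2 fold change was 0.80 ± 0.15 (1.74-fold, edgeR adjusted p = 0.00348).

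KLF10 (ENSG00000155090, chromosome 8, 102648784 to 102655725), the TGF-beta inducible early gene, fell from 64.4, 71.6 and 70.6 CPM in DMSO to 43.6, 39.0 and 54.8 CPM in panobinostat. Groups did not overlap, and the change was −0.59 ± 0.13 (1.50-fold lower, edgeR adjusted p = 0.00570). KLF11 (ENSG00000172059, chromosome 2, 10043550 to 10054836), its closest paralogue, had 25.4, 29.3 and 25.1 CPM in DMSO and 13.5, 12.9 and 24.4 CPM in panobinostat replicates 1, 2 and 4. Replicates 1 and 2 were far below every control, whereas replicate 4 was just under the lowest control. The log2 fold change of −0.67 ± 0.23 was called (edgeR adjusted p = 0.0373). The call was lost without any 1 library other than panobinostat replicate 4 (edgeR adjusted p = 0.0732 to 0.133). Without replicate 4 the log2 fold change was −1.003 ± 0.11 (edgeR adjusted p = 3.75e-11). That fit leaves out the treated library nearest the controls, so its p-value does not make the KLF11 call firmer. KLF13 (ENSG00000169926, chromosome 15, 31326835 to 31435665), a regulator of lymphocyte chemokine expression, was the lowest of the 10. It measured 7.03, 3.27 and 6.83 CPM in DMSO and 8.09, 5.70 and 6.32 CPM in panobinostat, with overlapping groups (0.25 ± 0.29, edgeR adjusted p = 0.483). Its estimate was −0.02 without DMSO replicate 2, the lowest library.

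KLF12 (ENSG00000118922, chromosome 13, 73686089 to 74306045), a repressor that binds CTBP proteins, hardly varied. Its levels were 48.1, 52.7 and 51.7 CPM in DMSO and 48.5, 50.4 and 48.3 CPM in panobinostat, and the groups overlapped. At −0.05 ± 0.08 (edgeR adjusted p = 0.607) it had the estimate nearest 0 of the 10, with an SE equal to the 0.08 of KLF5, which was called.

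**Figure D2:**
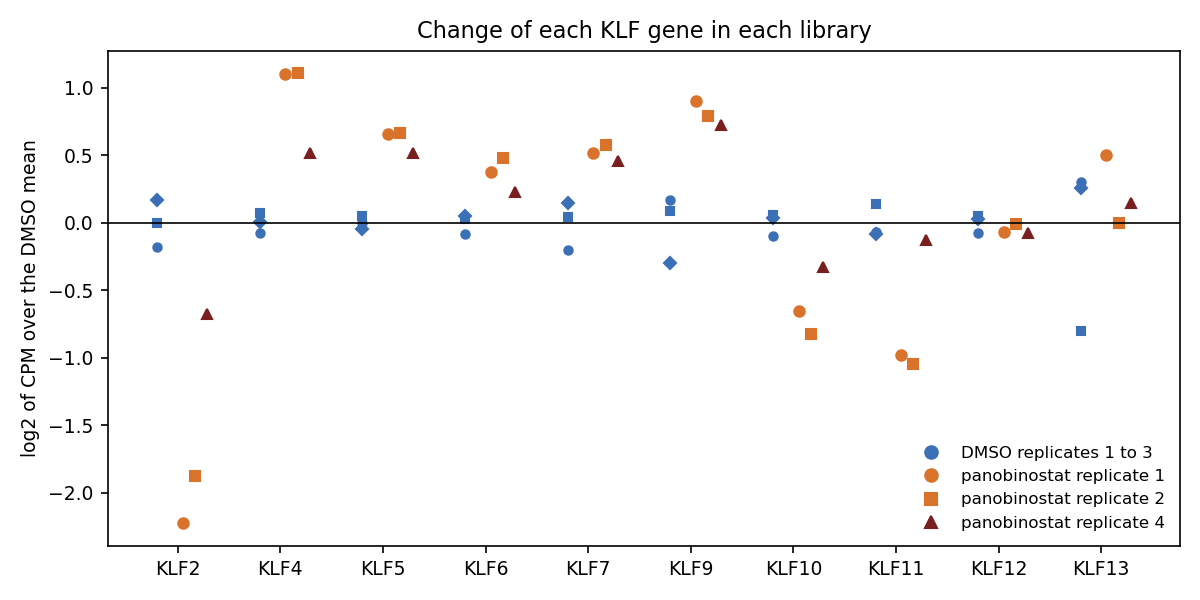
The log2 ratio of each library's CPM to the DMSO mean for the 10 KLF genes, with controls in blue, panobinostat replicates 1 and 2 in orange and replicate 4 in dark red. Replicate 4 stays near its group for KLF5, KLF7 and KLF9 and near the controls for KLF11.

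The treated libraries differed by gene in how far replicate 4 had moved. Relative to the step from the DMSO mean to panobinostat replicates 1 and 2 on the log2 scale, replicate 4 covered 85.8% for KLF9, 83.5% for KLF7 and 78.1% for KLF5. It covered 53.1% for KLF6, 46.6% for KLF4, 44.5% for KLF10, 32.6% for KLF2 and 12.2% for KLF11. The 3 genes that fell were thus all below 50%, and 4 of the 5 that rose were above it. Over all genes called higher and lower the medians were 60.6% and 44.8%, and no cause of the lag was tested. Without replicate 4 the same 5 KLF genes were higher and the same 3 lower, beside 37.6% and 36.9% of the 13746 genes then tested.

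The authors' deposited table gives the same directions for the 8 called genes. Its log2 fold changes were −1.33 for KLF2, 0.75 for KLF4, 0.67 for KLF9, −0.52 for KLF10 and −0.56 for KLF11. For 8 of the 10 genes the authors' deposited table gave an adjusted p under 0.05, as it did for 40.8% of all genes with an adjusted p there. That table does not name the libraries it was computed from. Its column of count sums exceeds the total of the 6 libraries, so the authors' values may rest on further libraries, which were not analysed here.

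**Figure D3:**
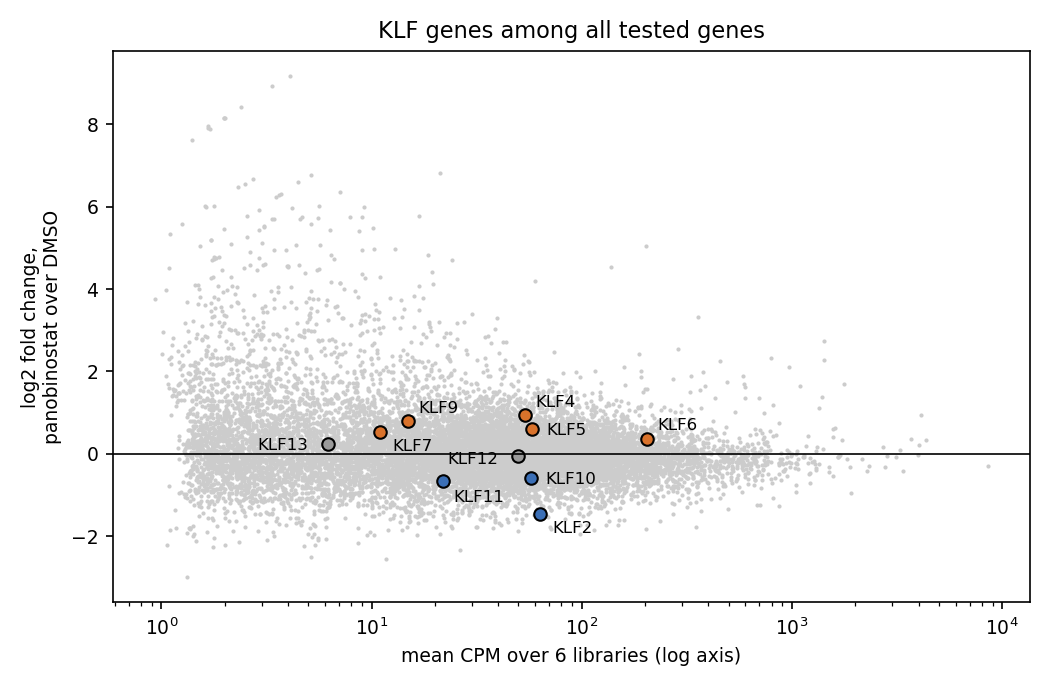
The log2 fold change of every tested gene (grey) against its mean CPM over the 6 libraries (log axis), with the 10 KLF genes outlined in black, orange where called higher, blue where lower and grey where not called. KLF2 lies at the lower edge of the cloud at −1.46, and the other 9 lie between −0.67 and 0.94.

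Compared per kilobase of exon, the order of the KLF transcripts changed. In DMSO the levels were 45.6 ± 5.45 CPM per kb (SD, n = 3) for KLF2, 28.9 ± 1.41 for KLF6, 17.2 ± 0.973 for KLF10, 11.8 ± 0.370 for KLF5 and 10.1 ± 0.512 for KLF4. KLF11 followed at 5.80 ± 0.509, KLF12 at 4.65 ± 0.218, KLF9 at 2.10 ± 0.343, KLF7 at 0.971 ± 0.118 and KLF13 at 0.607 ± 0.225. No 2 neighbours in that order overlapped across the control libraries. In panobinostat KLF6 came first at 37.3 ± 3.25 CPM per kb, above every other gene in all 3 libraries. KLF4 (19.2 ± 4.20), KLF5 (18.0 ± 1.02) and KLF2 (16.9 ± 10.2) came next, and their libraries overlapped. KLF2 also overlapped with KLF10 (11.4 ± 2.03), which lay above all the rest. KLF12 (4.49 ± 0.104), KLF11 (3.68 ± 1.41) and KLF9 (3.67 ± 0.229) followed, and KLF11 overlapped with both of the others. KLF7 (1.39 ± 0.058) and KLF13 (0.712 ± 0.132) stayed last and apart.

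The sum of the 10 genes depended on the scale. It was 119, 130 and 134 CPM per kb in DMSO and 112, 116 and 122 CPM per kb in panobinostat, with overlapping groups. Without division by length it was 494, 536 and 542 CPM in DMSO and 549, 564 and 548 CPM in panobinostat, so the groups did not overlap and the direction was the opposite. Of the sum per kb, KLF2 held 33.9%, 34.9% and 38.2% of that sum in DMSO and 8.70%, 10.7% and 23.3% in panobinostat replicates 1, 2 and 4. KLF6 held 22.7 ± 0.310% in DMSO and 32.0 ± 3.84% in panobinostat, KLF4 7.88 ± 0.303% and 16.6 ± 4.21%, and KLF5 9.24 ± 0.688% and 15.5 ± 1.52%. The shares of these 4 genes did not overlap between groups. KLF10 held 13.5 ± 0.289% and 9.77 ± 1.38%, while the per-kb shares of KLF11, KLF12 and KLF13 overlapped between groups. Without division by length only KLF13 of these 3 overlapped. KLF11 then held 5.08 ± 0.418% in DMSO and 3.06 ± 1.21% in panobinostat, and KLF12 9.70 ± 0.146% and 8.86 ± 0.0536%. An exact permutation test of 3 against 3 libraries cannot give a p below 0.1, so the shares carry no call. Counted without division by length, the KLF2 share was 17.5 ± 1.37% in DMSO and 6.18 ± 3.79% in panobinostat, because KLF2 has the shortest exons of the 10 (2.02 kb).

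**Figure D4:**
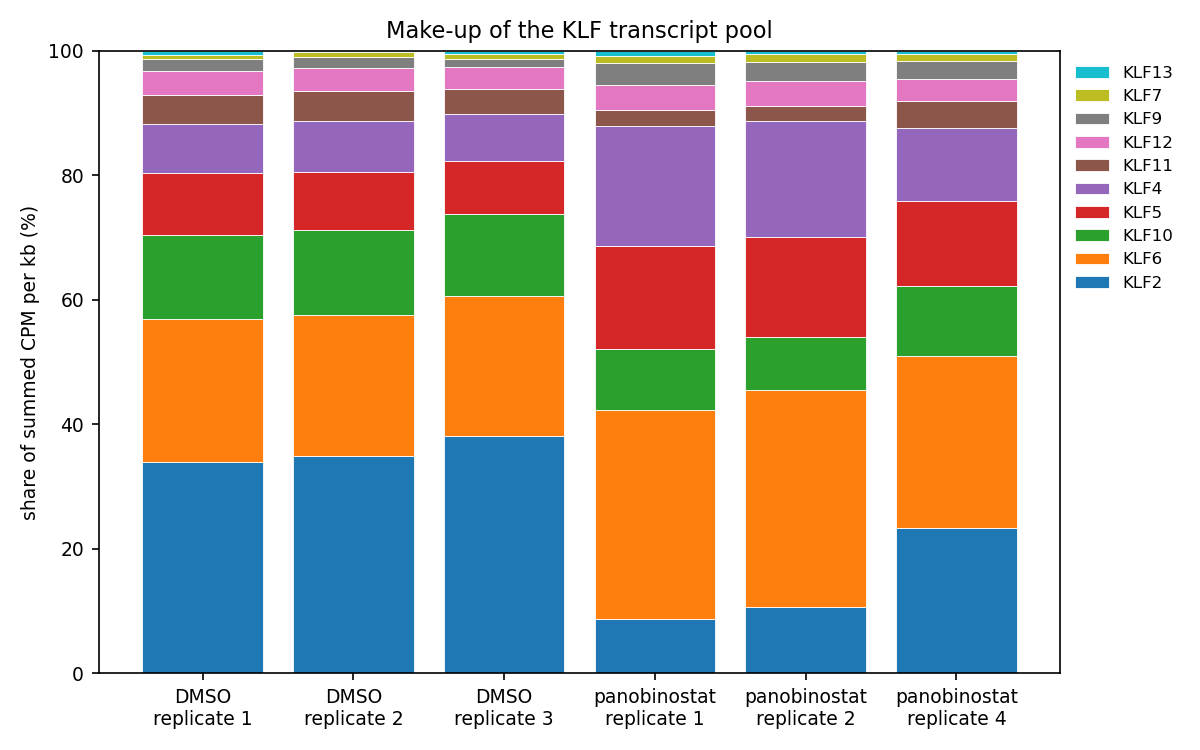
Share of each KLF gene in the summed CPM per kb of the 10 genes, as stacked bars, 1 per library, ordered from the bottom by mean share in DMSO. The KLF2 part (bottom) shrinks from 33.9% to 38.2% in DMSO to 8.70%, 10.7% and 23.3% in panobinostat replicates 1, 2 and 4.

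Likeness of pattern was taken over the 6 libraries, as a description. KLF2 was most like KLF10 among the members (Pearson r = 0.961 of log2 CPM) and least like KLF4 (r = −0.973). KLF4 was most like KLF6 (r = 0.977), KLF7 like KLF6 (r = 0.957) and KLF9 like KLF5 (r = 0.957). KLF12 and KLF13 resembled no other member beyond r = 0.421 and r = 0.298. Among the 9617 named genes of at least 10 CPM, the closest pattern to KLF2 was that of RSRC2 (r = 0.999) and to KLF4 that of PGF (r = 0.9995). For KLF5 it was that of IL1A (r = 0.999) and for KLF10 that of SETD5 (r = 0.998). Pearson r takes no account of the size of a change. The log2 fold changes of RSRC2, PGF, IL1A and SETD5 were −0.45, 0.88, 2.61 and −0.40. Those of KLF2, KLF4, KLF5 and KLF10 were −1.46, 0.94, 0.61 and −0.59. The closest was PPP1R12C for KLF6, SUCO for KLF7, VTA1 for KLF9, PSMD12 for KLF11, TRIM14 for KLF12 and PTPN3 for KLF13, at r of 0.970 to 0.999. With 6 libraries that share the treatment split and the intermediate replicate 4, such values describe the libraries only.

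Among the other KLF genes, 3 were tested: 1 rose, 1 fell and 1 was not called. KLF15, a metabolic regulator of muscle and liver, rose from 8.81, 7.40 and 7.45 to 13.7, 16.2 and 11.7 CPM (0.79 ± 0.16, edgeR adjusted p = 0.00496). KLF3, a CTBP-binding repressor, had 32.6 ± 1.66 CPM in DMSO and 22.8 ± 5.44 CPM in panobinostat, a lower level (−0.51 ± 0.16, edgeR adjusted p = 0.0250), and KLF16 was not called (0.06 ± 0.09, edgeR adjusted p = 0.593). KLF1, KLF8 and KLF17 had 2, 7 and 10 counts over all libraries and were not tested, and KLF14 and KLF18 were not analysed here.

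The SP factors can bind the same GC boxes as KLF proteins, and all 6 tested were called, 2 higher and 4 lower. Of all tested genes 30.2% were called higher and 28.6% lower, and no difference from these shares was tested for the SP genes or for any list that follows. SP1 fell from 143 ± 3.93 to 90.0 ± 19.1 CPM (−0.67 ± 0.13), SP3 from 134 ± 10.2 to 87.7 ± 20.4 CPM (−0.62 ± 0.15) and SP2 from 39.0 ± 2.82 to 22.9 ± 6.47 CPM (−0.78 ± 0.18). SP5 fell at a low level (−0.94 ± 0.28). SP6 rose from 3.11 ± 1.24 to 10.9 ± 2.16 CPM (1.74 ± 0.28) and SP4 from 12.2 ± 1.33 to 20.5 ± 1.18 CPM (0.74 ± 0.13). Their edgeR adjusted p ranged from 0.00238 to 0.0191. The calls of KLF3 and SP5 were lost without any 1 library other than panobinostat replicate 4 (edgeR adjusted p = 0.0532 to 0.0892).

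**Figure D5:**
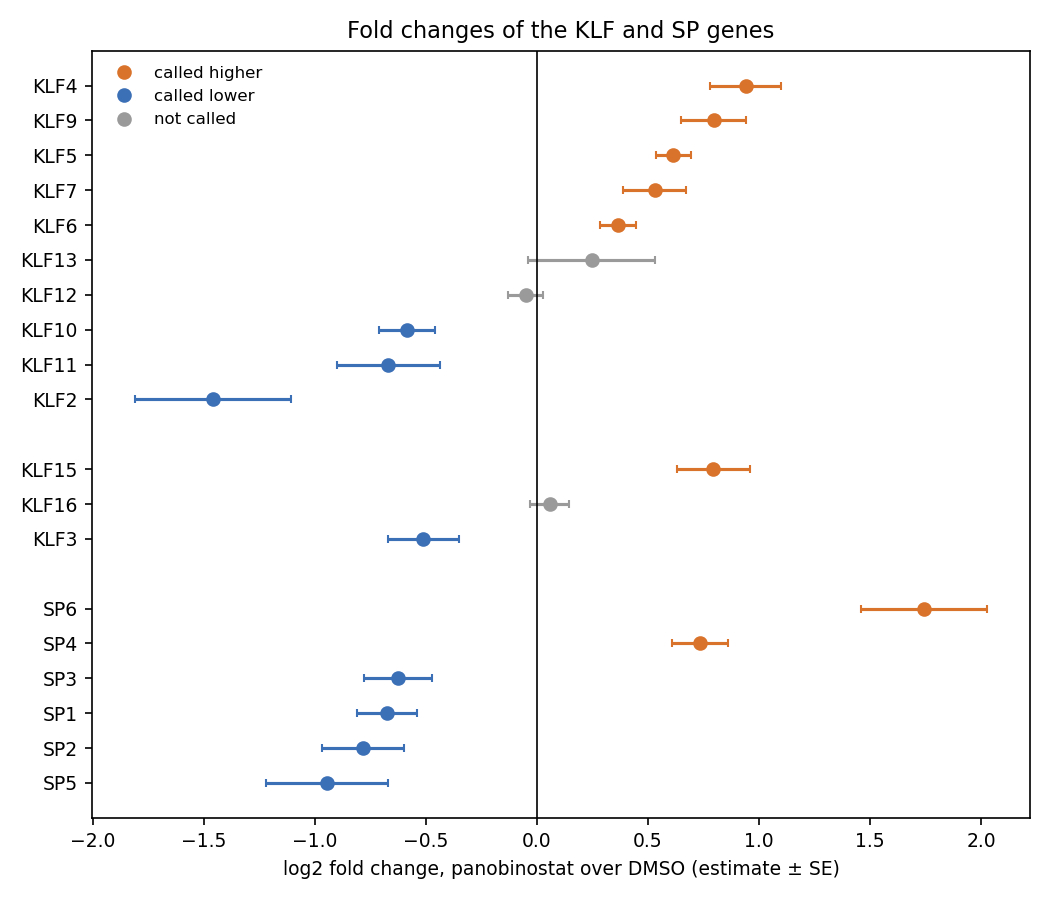
The log2 fold change (estimate ± SE) of the 10 KLF genes (top block), 3 other tested KLF genes (middle) and 6 tested SP genes (bottom), orange where called higher, blue where lower and grey where not called. Each block holds genes on both sides of 0, from −1.46 for KLF2 to 1.74 for SP6.

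The partners through which KLF proteins act also divided. All 4 acetyltransferase coactivator genes fell, beside 28.6% of all tested genes: CREBBP (−1.09 ± 0.21), EP300 (−0.80 ± 0.17), KAT2A (−0.62 ± 0.13) and KAT2B (−0.29 ± 0.10). Their median was −0.71, and their edgeR adjusted p was 0.00388 to 0.0327. Of the 9 corepressor genes, 4 rose, 2 fell and 3 were not called, with a median of 0.03. The SIN3 complex genes SIN3B (0.39 ± 0.08), SAP30 (0.35 ± 0.08), SAP18 (0.28 ± 0.07) and HDAC1 (0.21 ± 0.07) rose, and CTBP1 (−0.70 ± 0.14) and CTBP2 (−0.86 ± 0.18), which KLF3 and KLF12 bind, fell. SIN3A (−0.14 ± 0.07), SUDS3 (−0.02 ± 0.08) and HDAC2 (0.03 ± 0.06) were not called.

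Among ubiquitin ligases that target KLF proteins, 2 rose, 2 fell and 1 was not called. BTRC (0.43 ± 0.12), a ligase of KLF4, and FBXW7 (0.27 ± 0.10), a ligase of KLF2 and KLF5, rose. SIAH1 (−1.15 ± 0.23), which targets KLF10, and SMURF1 (−0.62 ± 0.15) fell, and WWP1 (0.22 ± 0.10), a ligase of KLF5, was not called. These are transcript levels, and no protein was measured.

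Upstream of KLF2 and KLF4 in endothelium, MAP3K3, MEK5 (MAP2K5) and ERK5 (MAPK7) activate MEF2 factors, and the cerebral cavernous malformation (CCM) complex restrains that path. MEF2C rose from 6.78 ± 0.532 to 19.3 ± 4.73 CPM (1.50 ± 0.20, edgeR adjusted p = 0.00119), MAP3K3 by 0.27 ± 0.08 and MEF2D by 0.24 ± 0.08 on the log2 scale. MAP2K5 (0.01 ± 0.13), MAPK7 (−0.26 ± 0.10) and MEF2A (−0.06 ± 0.07) were not called. In that list 3 of 6 rose and none was called lower, with a median of 0.13. Without panobinostat replicate 4 MAPK7 was called lower (−0.29, edgeR adjusted p = 0.00605). Of the CCM genes, HEG1 (−0.83 ± 0.17) and KRIT1 (−0.48 ± 0.12) fell, CCM2 (0.43 ± 0.11) rose and PDCD10 (−0.16 ± 0.06) was not called.

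Genes known as KLF targets went both ways. For KLF2 and KLF4, THBD, the thrombomodulin gene, fell from 177, 176 and 175 to 52.1, 46.7 and 113 CPM (−1.33 ± 0.29, edgeR adjusted p = 0.00640). The sphingosine phosphate receptor gene S1PR1 rose at a low level (1.91 ± 0.479 to 4.65 ± 1.55 CPM, 1.25 ± 0.32). CDKN1A, the p21 gene and also a KLF6 target, rose from 102 ± 1.01 to 305 ± 76.2 CPM (1.58 ± 0.17, edgeR adjusted p = 0.000701). KLF2 fell and KLF4 rose, so a called gene of this shared list matches 1 of them whichever way it moved. These directions therefore assign none of the targets to either factor. None of the 4 tested KLF5 targets rose: CCND1 (−1.25 ± 0.31) and PDGFA (−0.97 ± 0.20) fell, and PTGES (0.05 ± 0.08) and TNFAIP2 (−0.17 ± 0.07) were not called. Beside CDKN1A, the KLF6 targets TGFB1 (0.32 ± 0.07) rose, PLAU (−1.78 ± 0.49, or −2.76 without panobinostat replicate 4) and ENG (−0.49 ± 0.09) fell, and TGFBR1 (0.12 ± 0.06) was not called. The median was 1.25 for the 3 tested KLF2 and KLF4 targets, −0.57 for the KLF5 targets and 0.12 for the KLF6 targets. With THBD and CCND1, PLAU was not called when no filter was applied (edgeR adjusted p = 0.0934 to 0.165).

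KLF9 is known as a glucocorticoid receptor target, and of that list 6 genes had a test: 3 were higher, 1 lower and 2 not called, with a median of 0.39. Without panobinostat replicate 4, 5 were higher, with FKBP5 (0.14, edgeR adjusted p = 0.00467) and TSC22D3 (0.30, edgeR adjusted p = 0.0326) added. DUSP1, a MAPK phosphatase (1.99 ± 0.20), PER1, a clock gene (1.01 ± 0.15), and SGK1, a kinase (0.48 ± 0.10), rose. The receptor gene NR3C1 was at 141 ± 3.18 CPM in DMSO and lower, at 102 ± 16.8 CPM, in panobinostat (−0.47 ± 0.11, edgeR adjusted p = 0.00831), and FKBP5 (0.11 ± 0.06) and TSC22D3 (0.30 ± 0.12) were not called. KLF9 was thus higher in the libraries where 3 genes of the list were higher and the receptor gene was lower.

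KLF10 and KLF11 lie within TGF-beta signalling, and of the 10 genes tested from that list 5 were lower (28.6% over all tested genes), 2 higher (30.2%) and 3 not called, with a median of −0.28. The receptor gene TGFBR2 (−0.57 ± 0.10) and the signal transducers SMAD4 (−0.53 ± 0.11), SMAD3 (−0.41 ± 0.10) and SMAD2 (−0.33 ± 0.09) fell, as did the ligand gene TGFB2 (−0.49 ± 0.14). TGFB1 rose, as did MAOA, a target of KLF11 (1.22 ± 0.16). TGFB3 (−0.23 ± 0.27), TGFBR1 and SMAD7, the inhibitory SMAD that KLF10 and KLF11 repress (−0.12 ± 0.15), were not called. KLF10 and KLF11 were thus lower in libraries where 5 genes of the list were lower and 2, TGFB1 and the KLF11 target MAOA, were higher.

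Some calls among these partner and pathway genes changed with the processing. SAP18, HDAC1, KAT2B, FBXW7, BTRC, MAP3K3, MEF2D, CCM2, S1PR1 and TGFB2 each lost their call in at least 1 alternative, with a highest edgeR or DESeq2 adjusted p from 0.0502 (CCM2) to 0.270 (HDAC1). Every called gene of the pathway lists other than these, THBD, CCND1 and PLAU kept its call in all 13 alternatives. In the other direction, SIN3A, WWP1, MAPK7, PDCD10, TNFAIP2, TGFBR1, FKBP5 and TSC22D3, which were not called, gained a call in 3 to 5 of the alternatives, without panobinostat replicate 4 in each case. Without that library, 37.6% of all genes then tested were higher and 36.9% lower. The counts then were 2 higher and 4 lower for the SP genes, 4 higher and 3 lower for the corepressors, and 0 higher and 4 lower for the coactivators. They were 3 and 2 for the ubiquitin ligases, 3 and 1 for the MEK5, ERK5 and MEF2 genes, and 1 and 3 for the CCM genes. For the targets of KLF2 and KLF4 they were 2 and 1, for those of KLF5 0 and 3, and for those of KLF6 3 and 2. The glucocorticoid receptor genes gave 5 and 1, and the TGF-beta genes 3 and 5.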

How the data were processed

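Polyadenylated RNA was sequenced with a stranded kit, per the labels' protocols. The deposited table holds raw read counts per gene for 6 libraries. No label or header used here names the aligner, the counting settings or the annotation. The submitters' processing notes name GRCh38.p14 and FastQC. The same deposited table carries the authors' comparison, as a mean normalized signal, a log2 fold change with its SE, a test score and p-values. Its tool is not stated. Of these, only the log2 fold changes and p-values are quoted, as the authors'.

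The KLF genes and the gene lists were chosen with earlier results of these data known. Some genes of the pathway lists are not reported here and were left out of the lists' counts and medians. All 10 KLF genes are named, with the tested KLF and SP genes. From each pathway list the called genes at 1 CPM or more are named, at most 4 per direction by size of change, with those not called where 5 or fewer; the SMAD and TGF-beta genes called lower are all named beyond that rule. Counts were tested with edgeR 4.0.16 in R 4.3.3 (TMM factors, filterByExpr, robust quasi-likelihood fit on treatment), with Benjamini-Hochberg adjustment over 13341 genes and a threshold of 0.05. The filter left out 16710 genes. Each SE was derived from that test, as the absolute log2 fold change divided by the square root of its F statistic. CPM used TMM-scaled totals, and CPM per kb used the union exon length of GENCODE 29, which may differ from the authors' annotation. Alternatives used DESeq2 1.42.0 and limma 3.58.1. The labels call the 3 repeats independent and say no more, so p-values measure the spread between these libraries. Totals of 5389638 to 15106148 counts leave few counts for genes at low CPM, such as KLF13 with 346 over all libraries, which limits their precision.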

Additional observations from a re-analysis of the deposited data

How the results depend on the processing

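Other scalings (DESeq2 size factors, upper-quartile factors, library size only), the DESeq2 Wald test, limma-voom with library quality weights and leaving out panobinostat replicate 4 gave the calls and directions of all 10 KLF genes. With no filter KLF2 was lost (−1.51, edgeR adjusted p = 0.112). Leaving out 1 library at a time gave 4 to 5 KLF genes higher and 2 to 3 lower, 3106 to 5171 genes higher and 2624 to 5078 lower. KLF13 ranged from −0.024 to 0.44 in these fits, KLF16 from −0.0001 to 0.10, SUDS3 from −0.089 to 0.036, HDAC2 from −0.013 to 0.060, MAP2K5 from −0.067 to 0.13 and SMAD7 from −0.22 to 0.015, none of them called in the full comparison. Signs also changed for SUDS3 with library size only (0.011), for HDAC2 with no filter (−0.029) and with DESeq2 (−0.0007), for MAP2K5 with no filter (−0.049) and with DESeq2 (−0.014), and for PTGES with no filter (−0.0028); the cause was not tested. The KLF12 share of the KLF sum was 0.21 points higher in panobinostat per kilobase and −0.84 points without division by length. Only replicate numbers 1 and 2 occur in both groups, and the labels do not say what a number shares; deviations of same-numbered libraries correlated at 0.049 and 0.0055. With a replicate block, in which only those 4 libraries inform the treatment effect, 5 KLF genes were higher and 3 lower, with 5031 genes higher and 4950 lower in all, and MAP2K5 was at −0.049. In the full comparison the SE was 0.35 for KLF2 and 0.49 for PLAU, which have many counts, and 0.14 for KLF7 at a low level. Without panobinostat replicate 4 it was 0.13 for KLF2, 0.047 for PLAU and 0.14 for KLF7. The cause of these differences was not tested.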

Other observations

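KLF5 and KLF12 are neighbours on chromosome 13, with 609 kb between the end of KLF5 and the start of KLF12 on GRCh38.p14. KLF5 rose by 0.61 ± 0.08 on the log2 scale, and KLF12 was not called at −0.05 ± 0.08 (SE, n = 3 per group); the difference between them was not tested. KLF7 overlaps the sense intronic transcript KLF7-IT1, which had 4 counts over the DMSO libraries and 0 over the panobinostat libraries.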
